A study of Mus musculus with 9 samples.

Results

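The 41 genes described here encode proteins that find, signal and mend DNA damage, with the Fanconi anaemia pathway at their centre. They were chosen by name for their roles, by a rule that used no measured value, and all 41 were found among the 24060 named genes of the count table. They comprise 8 genes of the Fanconi core complex and its recruiter, the 2 genes of the FANCD2 and FANCI pair, 10 genes of the BRCA proteins and homologous recombination, 3 of the MRE11, RAD50 and NBN (MRN) complex, 6 of end joining, 4 checkpoint kinases and 8 of base, mismatch and nucleotide excision repair. All 41 passed the filter on low counts, with 21 to 9836 reads per gene and library, and 35 had at least 100 reads in every library.

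RNA was sequenced from LSKs, the Lin-Sca1+Kit+ fraction of mouse bone marrow that holds stem cells and multipotent progenitors. Control marrow was C57BL/6 (3 libraries), NHD13 marrow carried the NUP98-HOXD13 transgene under the Vav promoter, which is active in blood cells (2 libraries), and NHD13/MSI2 marrow carried in addition the doxycycline-inducible KH2-Col1A1-tet-on-MSI2 and ROSA26-rtTA alleles (4 libraries). By the study's methods, marrow of each genotype was transplanted into lethally irradiated congenic recipients, and LSKs were profiled after 3 months of doxycycline. The labels give C57BL/6 as the strain and 4 months as the age of all 9 samples, and do not say whether each library was 1 mouse. The p-values therefore measure the spread between these libraries, which may be partly technical.

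The library totals were 19845569 to 23013493 counts for control, 19242153 and 20318252 for NHD13, and 19625590 to 22777286 for NHD13/MSI2. Levels are given as CPM, the counts of a gene scaled to a common library size after TMM normalization. Msi2 itself was at 223 to 316 CPM in control, 111 and 139 CPM in NHD13 and 77.1 to 88.0 CPM in NHD13/MSI2 replicates 1 to 3, below both other groups, with 241 CPM in replicate 4. Its log2 fold change in NHD13/MSI2 was -1.13 over control (adjusted p = 0.0688) and -0.03 over NHD13 (adjusted p = 0.983), so it did not pass as higher in either. Whether reads of the MSI2 transgene were counted on this gene is not given in the sources used here, so this level does not check the labels. NHD13/MSI2 replicate 4 stood apart from the other 3 libraries of its group: its 50 highest genes took 21.1% of its counts, against 12.5 to 15.7% in the other 8 libraries, and its TMM factor was 0.785 against 0.969 to 1.09. Control replicates 1 and 3 had next to no reads of the Y-linked gene Eif2s3y (0.123 and 0.0400 CPM), and the other 7 libraries had 122 to 180 CPM. The control libraries thus differed in sex. The study's methods do not say whether the sequenced LSKs were sorted for donor cells. Cells of the recipients, or of the helper marrow given with the transplant, may therefore be counted too. The library name of control replicate 1 holds the word Bulk and those of control replicates 2 and 3 hold MPP and HSC, although all are labelled LSK. Kit, which defines the gate, was at 908 CPM or more in every library, and Ly6a, which encodes Sca1, was at 79.3 to 89.8 CPM in control, 69.0 and 48.3 CPM in NHD13, 254 to 375 CPM in NHD13/MSI2 replicates 1 to 3 and 98.6 CPM in replicate 4.

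In the Fanconi pathway, FANCM recruits a core complex of several FANC proteins to DNA crosslinks, and the core complex attaches ubiquitin to FANCD2 and FANCI. The marked pair then directs nucleases and the BRCA proteins, which act in the repair of the break by homologous recombination. Double-strand breaks can instead be joined end to end after the Ku heterodimer (Ku70 and Ku80, encoded by Xrcc6 and Xrcc5) has bound them, whereas excision repair replaces damaged bases and bulky lesions on a single strand. Inherited loss of Fanconi genes leads to bone marrow failure and a high risk of myelodysplasia and leukaemia, because blood stem cells tolerate such damage poorly.

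The promoters of the 2 Ku genes are shown because their partner products form a dimer and their counts parted in these libraries. RefSeq promoters on GRCm38.p6, from 250 bases before to 50 bases after the gene start, matched 35 of the 41 genes, and Rad50, Xpc, Xrcc2, Prkdc, Nbn and Fancd2 had no entry. Capitals mark the GC box, written GGGCGG, the CCAAT box, which reads ATTGG where it lies on the reverse strand, and the core of the NRF1 motif, written GCGCATGC.
Xrcc5, chr1:72307171-72307470, plus strand: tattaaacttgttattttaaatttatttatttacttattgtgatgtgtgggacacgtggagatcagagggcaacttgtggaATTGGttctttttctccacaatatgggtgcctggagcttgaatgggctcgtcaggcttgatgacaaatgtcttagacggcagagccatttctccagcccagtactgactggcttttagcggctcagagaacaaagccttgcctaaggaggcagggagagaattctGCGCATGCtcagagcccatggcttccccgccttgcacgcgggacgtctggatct
Xrcc6, chr15:82016119-82016418, plus strand: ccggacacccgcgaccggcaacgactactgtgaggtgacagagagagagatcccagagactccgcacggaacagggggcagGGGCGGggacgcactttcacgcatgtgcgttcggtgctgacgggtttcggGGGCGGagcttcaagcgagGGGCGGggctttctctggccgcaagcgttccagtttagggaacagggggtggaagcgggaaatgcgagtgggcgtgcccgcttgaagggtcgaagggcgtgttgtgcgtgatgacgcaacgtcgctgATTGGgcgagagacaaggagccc
The Xrcc5 window held 48.0% G and C, 9 CpG, 1 CCAAT box, 1 NRF1 core and 0 GC boxes. The Xrcc6 window held 64.3% G and C, 30 CpG, 3 GC boxes, 1 CCAAT box and 0 NRF1 cores. Of the 35 matched genes, 26 had a GC box (74.3%, against 35.7% of all 32851 promoters) and 19 a CCAAT box (54.3% against 37.4%). An ETS site (CCGGAAG) stood in 10 genes (28.6% against 8.86%) and an NRF1 core in 6 (17.1% against 2.71%). A gene was counted if any of its promoters held the motif, whereas the share beside it is of single promoters. The 2 shares are thus in unlike units. An E2F site (TTTGGCGC) stood in 0 of the 35, and in 0.514% of all promoters. Both strands were searched, the motifs were chosen after these sequences had been seen, and a match describes letters and not a bound site.

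Xrcc5 fell and Xpc rose in NHD13/MSI2 over control (adjusted p under 0.01), which is 2 of 41 genes against 11.0% of all 13355 genes tested (4.49% higher and 6.55% lower). In NHD13/MSI2 over NHD13 the quasi-likelihood test of edgeR called 0 of the 41 genes, against 3.17% of all genes (0.584% higher and 2.58% lower). With NHD13 set against control it called 0, against 1.03% of all genes (0.824% higher and 0.210% lower). At an unadjusted p under 0.05, 4 of the 41 genes passed in the comparison with NHD13 (1 higher, 3 lower), whereas 21.7% of all genes did. In that with control 9 passed (3 higher, 6 lower), against 32.8% of all genes, and for NHD13 alone 2 passed (both lower), against 13.5%. DESeq2 called 2 of the 41 genes over NHD13, 3 over control and 0 for NHD13 alone. Over all 24060 named genes DESeq2 called 1292, 2590 and 602 in the same order, more than the 423, 1474 and 138 of edgeR over 13355. The 3 comparisons share libraries and are not independent of each other. These are whole-fraction RNA levels, so that fewer cells of a type and less RNA per cell cannot be told apart.

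The fold changes of most of the 41 genes were small. They lay within 0.5 on the log2 scale for 34 genes in NHD13/MSI2 over NHD13 (82.9%, against 61.8% of all genes), for 33 in NHD13/MSI2 over control (80.5% against 56.8%) and for 36 in NHD13 over control (87.8% against 69.3%). The median log2 fold change of the 41 genes was 0.04, -0.10 and -0.09 in these comparisons, and that of all genes was -0.03, -0.01 and 0.02. The fold change was positive for 23, 15 and 15 of the 41 genes (56.1%, 36.6% and 36.6%), against 47.3%, 49.1% and 52.0% of all genes. Scaling by library totals alone shifted the median of all genes to -0.22 in both NHD13/MSI2 comparisons, and 14 and 7 of the 41 genes were then positive. The sum over the 41 genes was 2917 to 3086 CPM in control, 2707 and 2946 CPM in NHD13, and 2774 to 3628 CPM in NHD13/MSI2, with the highest value in replicate 4.

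**Figure D1:**
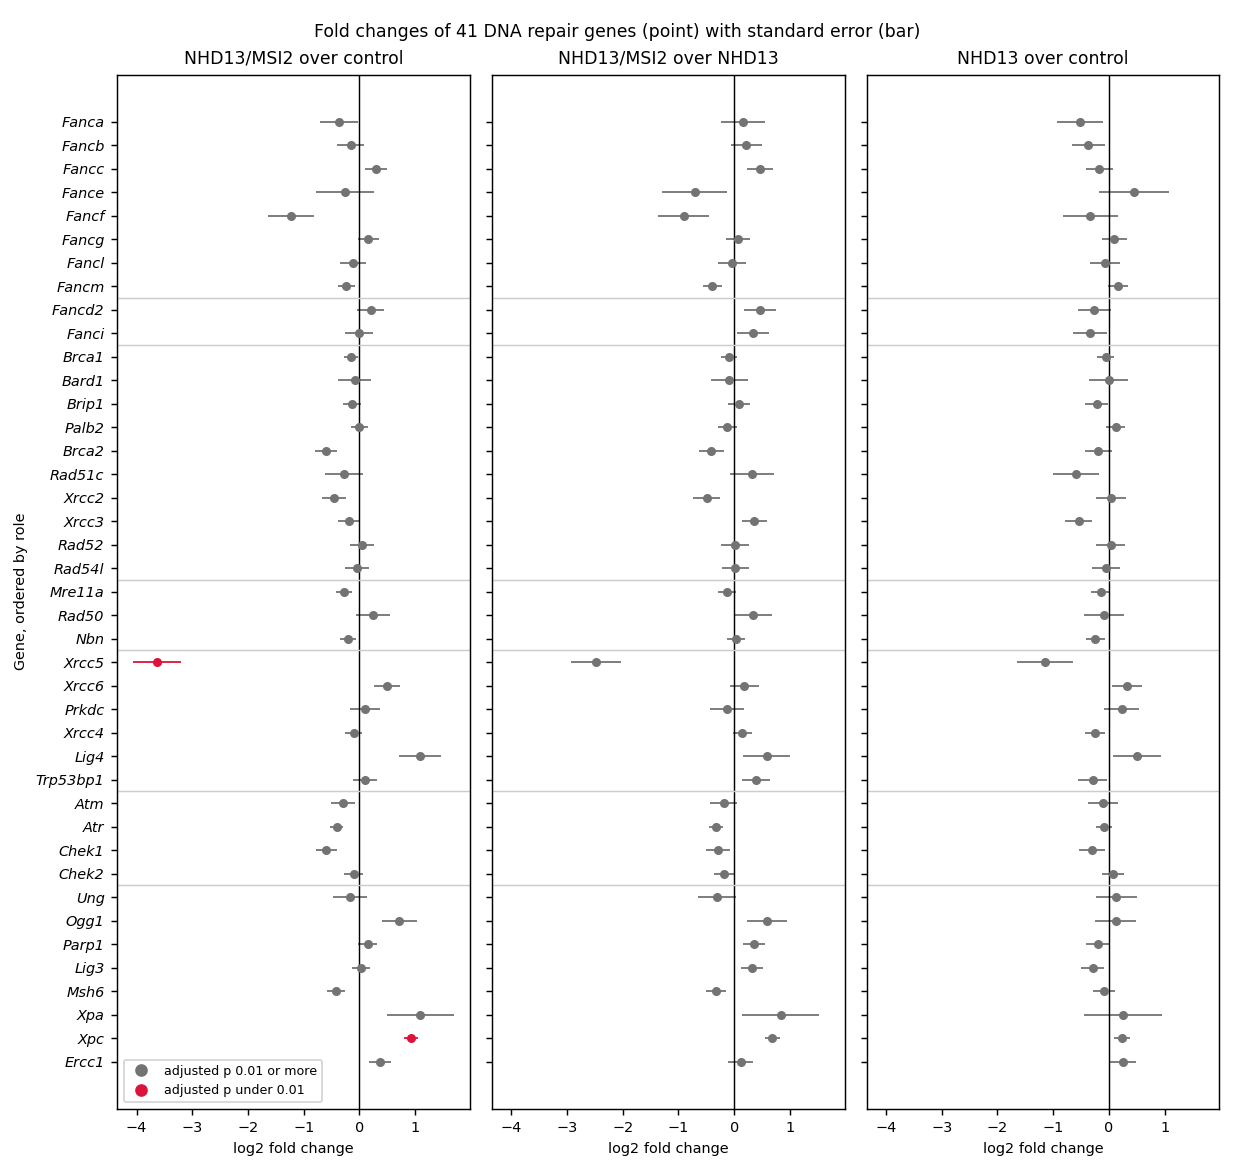
Log2 fold changes of the 41 repair genes with their standard errors in the 3 comparisons, ordered by role and parted by role with grey lines. Red marks the 2 genes past an adjusted p of 0.01, Xrcc5 and Xpc in NHD13/MSI2 over control, and most other points lie within 0.5 of 0.

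The largest difference among the 41 genes was in Xrcc5, which encodes Ku80. Its level was 63.8, 68.7 and 74.5 CPM in the control libraries, 45.5 and 16.8 CPM in the NHD13 libraries, and 7.29, 3.29, 8.37 and 3.25 CPM in NHD13/MSI2 replicates 1 to 4. Every NHD13/MSI2 library lay below both NHD13 libraries, and both NHD13 libraries lay below every control library. The underlying reads numbered 1447 to 1862 in control, 989 and 340 in NHD13 and 50 to 185 in NHD13/MSI2. Against control, Xrcc5 fell by 3.63 on the log2 scale in NHD13/MSI2 (SE 0.43, adjusted p = 0.000546, a level 12.4-fold lower). Against NHD13 the log2 fold change was -2.48 (SE 0.45, adjusted p = 0.0101), a fitted level 5.58-fold lower that lay just outside the threshold. Leaving out NHD13 replicate 2 gave -2.99 (adjusted p = 0.00525), and leaving out NHD13 replicate 1 gave -1.57 (adjusted p = 0.124). In NHD13 over control the log2 fold change was -1.15 (SE 0.50, adjusted p = 0.358), and the 2 NHD13 libraries lay far apart.

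Xrcc6, which encodes the partner Ku70, did not share this pattern. It was at 203, 196 and 223 CPM in control, 257 and 259 CPM in NHD13, and 266, 221, 245 and 439 CPM in NHD13/MSI2, with replicate 4 the highest. Its log2 fold change in NHD13/MSI2 over control was 0.50 (SE 0.23, adjusted p = 0.168). Per read of Xrcc6, Xrcc5 had 0.315, 0.351 and 0.334 reads in control, 0.177 and 0.0648 in NHD13, and 0.0274, 0.0149, 0.0342 and 0.00739 in NHD13/MSI2. This ratio within a library is independent of its scaling, and its 3 groups did not overlap. It shows that the 2 genes differed unequally, with no test of the ratio itself. Desi1 overlaps Xrcc6 on the opposite strand in the GENCODE M21 annotation, which lists no gene overlapping Xrcc5.

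The other 4 end-joining genes did not pass the test. Prkdc, the catalytic kinase subunit that Ku brings to a break, was at 64.6 to 78.1 CPM in control, 71.6 and 92.7 CPM in NHD13 and 55.4 to 121 CPM in NHD13/MSI2. Xrcc4, the scaffold of the ligase, was at 18.4 to 23.7 CPM in all 9 libraries. Lig4, the ligase itself, was low, at 3.27 to 5.36 CPM in control, 7.59 and 4.45 CPM in NHD13 and 4.97 to 11.8 CPM in NHD13/MSI2. Its log2 fold change in NHD13/MSI2 over control was 1.09 (SE 0.37, adjusted p = 0.0697), and its libraries overlapped between these groups. Trp53bp1, which favours end joining over resection, was at 79.1 to 149 CPM with overlapping groups.

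**Figure D2:**
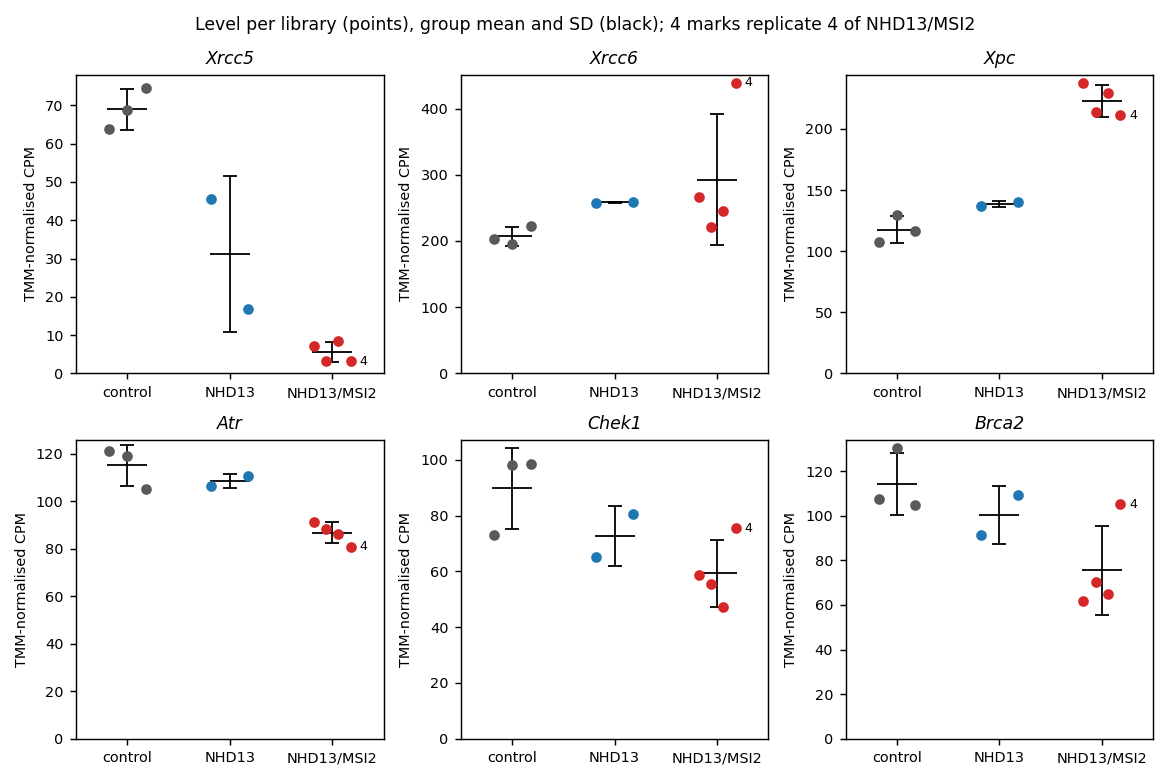
TMM-normalised CPM of 6 repair genes in each library (points), with the group mean and SD (black) and linear axes from 0. Xrcc5 steps down from control to NHD13 to NHD13/MSI2 without overlap, Xpc is highest in NHD13/MSI2, and replicate 4 of NHD13/MSI2 (marked 4) lies above the other 3 libraries of its group for Xrcc6, Chek1 and Brca2.

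Xpc encodes the damage sensor that starts global genome nucleotide excision repair. It was at 107, 129 and 116 CPM in control, 137 and 140 CPM in NHD13, and 238, 213, 229 and 211 CPM in NHD13/MSI2. The groups did not overlap, and replicate 4 of NHD13/MSI2 lay close to the other 3 libraries. Xpc rose by a log2 fold change of 0.92 in NHD13/MSI2 over control (SE 0.12, adjusted p = 0.00103, 1.90-fold higher). Against NHD13 the log2 fold change was 0.69 (SE 0.14, adjusted p = 0.0183), and it passed the threshold without NHD13/MSI2 replicate 4 (0.73, adjusted p = 0.00503). In NHD13 over control it was 0.24 (SE 0.14, adjusted p = 0.591).

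No other excision or mismatch repair gene passed. Xpa, which binds the opened lesion after XPC, was at 1.60 to 3.24 CPM in 8 libraries and at 9.54 CPM in NHD13/MSI2 replicate 4. Ercc1, a subunit of the nuclease that cuts on the 5′ side of the lesion, was at 28.6 ± 6.54 CPM (SD, n = 4) in NHD13/MSI2. It was at 23.9 and 28.9 CPM in NHD13 and 22.2 ± 1.13 CPM (SD, n = 3) in control. Every NHD13/MSI2 and every NHD13 library lay above every control library. The log2 fold change of Ercc1 in NHD13/MSI2 over control was 0.36 (SE 0.20, adjusted p = 0.236). In base excision repair, Ogg1, the glycosylase for oxidised guanine, was at 26.0 to 31.7 CPM in NHD13/MSI2 replicates 1 to 3, at 66.7 CPM in replicate 4 and at 21.4 to 26.7 CPM in control. Ung, the uracil glycosylase, was at 37.5 to 48.1 CPM in replicates 1 to 3, at 19.5 CPM in replicate 4 and at 33.1 to 49.97 CPM in control. Parp1, the sensor of strand breaks, and Lig3, the ligase that seals them with XRCC1, lay higher in all 4 NHD13/MSI2 than in both NHD13 libraries. Lig3 was at 104, 102, 127 and 106 CPM in NHD13/MSI2, 94.6 and 80.7 CPM in NHD13 and 133, 88.9 and 100 CPM in control. Its log2 fold changes were 0.32 over NHD13 (SE 0.19, adjusted p = 0.382) and, in NHD13 over control, -0.29 (SE 0.20, adjusted p = 0.641). Msh6, which recognises mismatched bases, was at 92.2 to 119 CPM in NHD13/MSI2, 127 and 139 CPM in NHD13 and 114 to 155 CPM in control (log2 fold change over control -0.42, SE 0.16, adjusted p = 0.108).

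The 8 genes of the Fanconi core complex and its recruiter had 0 calls in each comparison, and their summed level was 208 to 240 CPM in control, 197 and 225 CPM in NHD13 and 210 to 228 CPM in NHD13/MSI2. Per kilobase of exon the levels were unequal, from 0.680 CPM for Fance and 1.24 CPM for Fancf to 19.2 CPM for Fancg, as means over the 9 libraries. Fancf, an adaptor of the core complex, was at 2.21, 4.03 and 2.80 CPM in control, 2.81 and 1.98 CPM in NHD13, and 1.66, 1.10, 1.00 and 1.36 CPM in NHD13/MSI2. All 4 NHD13/MSI2 libraries lay below the 5 others, but these values rest on 21 to 85 reads. Its log2 fold change in NHD13/MSI2 over control was -1.23 (SE 0.41, adjusted p = 0.0621). Fancm, the translocase that recruits the complex, was at 29.1, 32.3 and 28.6 CPM in control, 29.2 and 37.8 CPM in NHD13, and 27.5, 23.6, 24.2 and 26.8 CPM in NHD13/MSI2, a log2 fold change over NHD13 of -0.39 (SE 0.17, adjusted p = 0.215). Fancc, another core subunit, lay higher in NHD13/MSI2 (38.0, 28.4, 40.5 and 41.1 CPM) than in NHD13 (25.8 and 27.9 CPM), and control spanned both with 38.6, 25.1 and 26.9 CPM. Its log2 fold change over NHD13 was 0.46 (SE 0.23, adjusted p = 0.285). Other annotated genes overlap Fancc and, over 253 bases on the opposite strand, Fancf, and the strand setting of the counting is not given in the sources used here.

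The other 5 core genes did not separate either NHD13/MSI2 comparison. Fanca was at 13.7 to 39.9 CPM over all libraries, Fancb at 16.4 to 33.1 CPM, Fance at 1.24 to 4.64 CPM and Fancg at 55.3 to 100 CPM. Fancl, the subunit that transfers ubiquitin, was at 28.3 to 33.3 CPM in 8 libraries and at 16.9 CPM in NHD13/MSI2 replicate 4. The substrates of the complex, Fancd2 and Fanci, lay higher in replicate 4 (76.2 and 116 CPM) than in any other library, where Fancd2 was at 32.2 to 59.3 CPM and Fanci at 53.2 to 87.5 CPM.

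**Figure D3:**
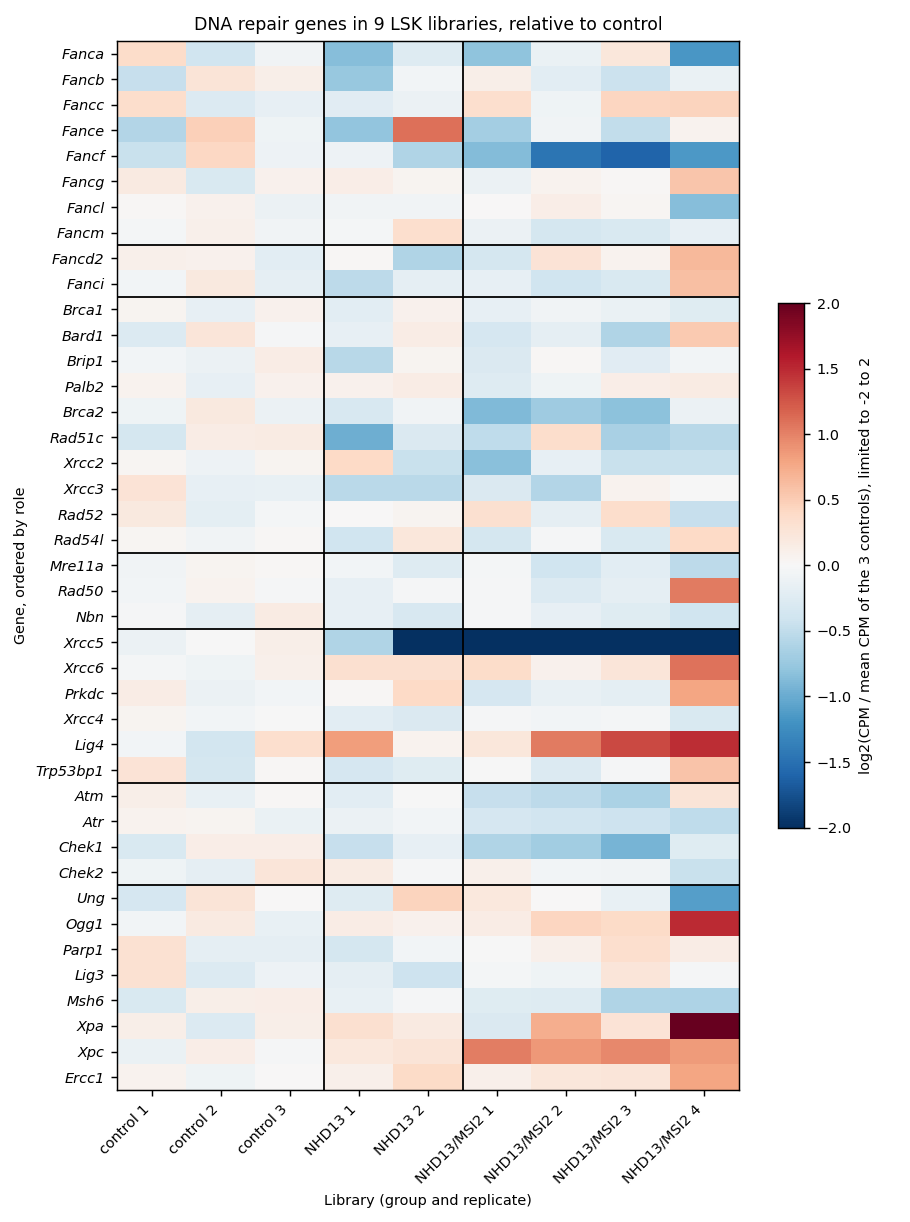
Level of each of the 41 repair genes (rows, ordered by role) in the 9 libraries (columns), as log2 of the CPM over the mean CPM of the 3 controls, with the colour limited to -2 to 2. Xrcc5 is at the lower limit in NHD13 replicate 2 and all 4 NHD13/MSI2 libraries, Xpc is raised in all 4 NHD13/MSI2 libraries, and NHD13/MSI2 replicate 4 stands out in rows such as Xpa, Ogg1, Rad50 and Ung.

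Homologous recombination genes had 0 of 10 calls in each comparison, with median log2 fold changes of -0.04 against NHD13, -0.14 against control and, for NHD13 alone, -0.06. Brca1, the ubiquitin ligase that promotes resection, was even, at 68.8 to 86.7 CPM in the 9 libraries. Its partner Bard1 was at 7.60 to 16.6 CPM, the helicase Brip1 at 64.9 to 106 CPM and Palb2, which links BRCA1 to BRCA2, at 38.8 to 52.1 CPM. Rad54l, a motor protein of recombination, was at 97.9 to 169 CPM and Rad52, an annealing protein, at 23.0 to 40.4 CPM. The fold changes of these 6 genes were at most 0.22 in size on the log2 scale in all 3 comparisons.

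Brca2, a mediator of recombination at resected DNA, was the recombination gene with the smallest p in NHD13/MSI2 over control. It was at 108, 130 and 105 CPM in control, 91.2 and 109 CPM in NHD13, and 62.0, 70.2, 64.8 and 105 CPM in NHD13/MSI2. Replicates 1 to 3 lay below all other libraries, and replicate 4 lay within the controls. The log2 fold change over control was -0.60 (SE 0.20, adjusted p = 0.0642), and without replicate 4 it was -0.79 (SE 0.12, adjusted p = 0.00209).

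Among Xrcc2, Xrcc3 and Rad51c, which act in the strand exchange of recombination, Xrcc3 was at 41.5, 30.5 and 30.9 CPM in control, 23.5 and 23.6 CPM in NHD13, and 28.0, 22.9, 36.1 and 34.1 CPM in NHD13/MSI2. It lay lower in both NHD13 than in the 3 control libraries (log2 fold change -0.54, SE 0.24, adjusted p = 0.370). Klc1 overlaps Xrcc3 on the opposite strand. Rad51c was low, at 6.01, 8.49 and 8.60 CPM in control, 3.91 and 6.27 CPM in NHD13, and 5.43, 9.77, 4.89 and 5.26 CPM in NHD13/MSI2, with a log2 fold change of -0.60 in NHD13 over control (SE 0.41, adjusted p = 0.645). Xrcc2 was at 24.6 to 39.0 CPM in NHD13/MSI2, below the 40.7 to 45.7 CPM of control, and the NHD13 libraries overlapped both at 57.9 and 32.4 CPM. The 3 MRN genes, whose products tether broken ends and activate ATM, had 0 calls. Mre11a was at 54.3 to 80.7 CPM, Nbn at 64.6 to 96.1 CPM and Rad50 at 194 to 247 CPM, apart from 481 CPM of Rad50 in NHD13/MSI2 replicate 4.

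The checkpoint kinases halt the cell cycle once damage is found, and their 4 fold changes were all negative in both NHD13/MSI2 comparisons, with 0 past the threshold. Atr, the kinase of stalled forks, was at 121, 119 and 105 CPM in control, 106 and 111 CPM in NHD13, and 91.2, 88.3, 86.2 and 80.9 CPM in NHD13/MSI2. The NHD13/MSI2 libraries lay below the 5 others, while NHD13 and control overlapped. The log2 fold change was -0.41 over control (SE 0.11, adjusted p = 0.0323) and -0.32 over NHD13 (SE 0.13, adjusted p = 0.177). DESeq2 gave -0.41 over control with an adjusted p of 0.00204. Chek1, the effector kinase of ATR, was at 73.0, 98.0 and 98.4 CPM in control, 65.2 and 80.5 CPM in NHD13, and 58.9, 55.6, 47.2 and 75.6 CPM in NHD13/MSI2. Replicate 4 reached the range of the other groups, and the log2 fold change over control was -0.60 (SE 0.19, adjusted p = 0.0522) with it and -0.73 (SE 0.15, adjusted p = 0.00806) without it.

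Atm, the kinase of double-strand breaks, was at 110 to 133 CPM in control, 106 and 122 CPM in NHD13, and 89.3, 85.2, 78.9 and 147 CPM in NHD13/MSI2. Replicates 1 to 3 lay below all other libraries and replicate 4 above them. The log2 fold change over control was -0.29 (SE 0.22, adjusted p = 0.395), and without replicate 4 it was -0.53 (SE 0.11, adjusted p = 0.00675). Chek2, the effector of ATM, was at 56.5 to 90.5 CPM with overlapping groups.

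The count of calls over control thus turned on NHD13/MSI2 replicate 4. Without it 5 of the 41 genes passed, of which Xpc was higher and Xrcc5, Brca2, Chek1 and Atm were lower. Of all genes, 2066 of 13305 tested then passed, in place of 1474 of 13355. In NHD13/MSI2 over NHD13 the call without it was Xpc. Replicate 4 lay above the other 3 libraries of its group for 19 of the 41 genes, below them for 13 and among them for 9, so that it was outside their range for 78.0% of the 41 genes and 73.1% of all genes tested. Its largest differences from the mean of the others were in Xpa, Rad50, Ogg1 and Prkdc, where it was higher, and in Ung and Fanca, where it was lower.

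**Figure D4:**
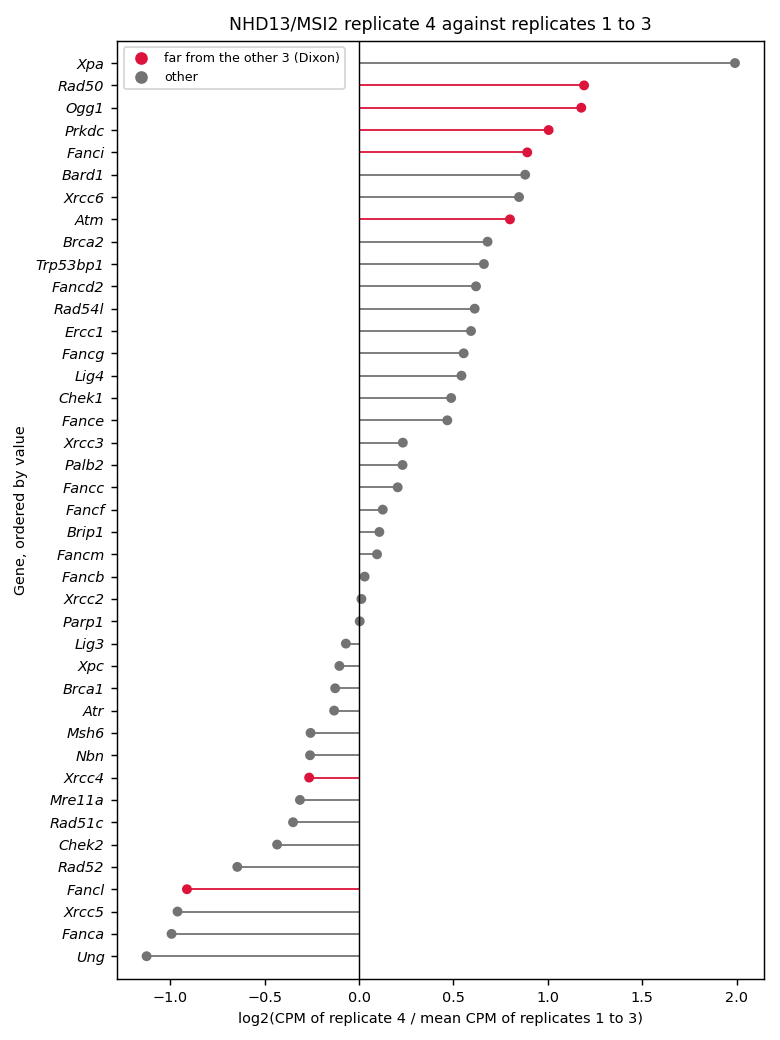
Log2 of the CPM in NHD13/MSI2 replicate 4 over the mean CPM of replicates 1 to 3 for the 41 repair genes, ordered by value. Red marks the 7 genes where replicate 4 lay far from the other 3 by Dixon's criterion, 5 of them above and 2 below.

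Whole-library order gives a further description of the 41 genes. In NHD13/MSI2 over NHD13, 4 genes lay higher in every NHD13/MSI2 library (Fancc, Parp1, Lig3 and Xpc) and 5 lower (Fancf, Fancm, Xrcc5, Atr and Msh6), which is 9 of 41 genes against 29.9% of all genes (13.0% higher and 16.9% lower). Over control 2 genes lay higher (Xpc and Ercc1) and 5 lower (Fancf, Fancm, Xrcc2, Xrcc5 and Atr), against 35.7% of all genes (15.3% higher and 20.4% lower). In NHD13 over control 5 lay higher (Palb2, Xrcc6, Xpa, Xpc and Ercc1) and 3 lower (Xrcc3, Xrcc5 and Xrcc4), against 37.4% of all genes (18.9% higher and 18.5% lower). Each of these shares of the 41 genes was below that of all genes.

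A further 114 repair genes outside the 41 were read from the same test. In NHD13/MSI2 over control 2 of them passed, Uimc1 higher and Rad18 lower, against 11.0% of all genes, and 30 had an unadjusted p under 0.05 (13 higher, 17 lower), against 32.8% of all genes. Over NHD13 0 passed, against 3.17% of all genes, and 11 had an unadjusted p under 0.05, against 21.7% of all genes. For NHD13 alone 0 passed, against 1.03%, and 5 had an unadjusted p under 0.05, against 13.5%. DESeq2 called 0 in both of these comparisons. Uimc1 encodes RAP80, which brings BRCA1 to ubiquitin at breaks. It was at 79.5, 72.7 and 73.0 CPM in control, 96.4 and 115 CPM in NHD13, and 167, 165, 155 and 287 CPM in NHD13/MSI2 (log2 fold change over control 1.36, SE 0.23, adjusted p = 0.00299). The call on Uimc1 was lost when any single control library was left out. Rad18, a ubiquitin ligase that marks PCNA for bypass of lesions, was at 121, 145 and 115 CPM in control, 112 and 97.7 CPM in NHD13, and 77.8, 89.5, 81.1 and 79.9 CPM in NHD13/MSI2 (-0.63, SE 0.13, adjusted p = 0.00839). The Rad18 call was lost when any library other than NHD13/MSI2 replicate 4 was left out. Without replicate 4 the number of calls among the 114 genes was 13, and 2066 among the 13305 genes then tested.

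Some repair genes, but not all, are expressed with the cell cycle. Lists of cycle genes were therefore read beside the repair genes. Of 27 genes of G1/S and replication and 20 of G2/M, 0 passed in any of the 3 comparisons, whereas 3, 7 and 2 of the former and 2, 5 and 9 of the latter had an unadjusted p under 0.05 (against NHD13, against control and for NHD13 alone). Of all genes, 21.7%, 32.8% and 13.5% had such a p in the same order of comparisons. Among these list shares, only that of G2/M for NHD13 alone was above the share of all genes. Its 9 genes were all lower in NHD13 than in control. The summed G1/S level was 6980 to 7843 CPM in control, 5791 and 6816 CPM in NHD13 and 5866 to 6085 CPM in NHD13/MSI2. The summed G2/M level was 4184 to 4772 CPM, 3359 and 3528 CPM, and 3496 to 4270 CPM. The G1/S sum of every NHD13 and every NHD13/MSI2 library lay below that of every control library. The G2/M sum lay below control in both NHD13 libraries, and its NHD13/MSI2 range overlapped that of control. The part of both sums in the repair gene levels was not tested.

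Markers of the gate and of other cell types also differed between the groups. Of 7 stem and progenitor markers 4 (Cd34, Flt3, Slamf1 and Procr) fell over control, and their summed level was 4302 to 4749 CPM in control, 2528 and 2758 CPM in NHD13 and 2292 to 3015 CPM in NHD13/MSI2. Ly6a had a log2 fold change of 2.15 over NHD13 (adjusted p = 0.0221), which did not pass. Ly6a and Cd48 had positive fold changes over control that did not pass (1.60, adjusted p = 0.0167, and 0.24, adjusted p = 0.685), and Kit a negative one (-0.76, adjusted p = 0.0561). Slamf1, a stem cell marker, was at 12.6 to 30.2 CPM in control, 13.4 and 51.8 CPM in NHD13 and at most 1.86 CPM in NHD13/MSI2, where it had 3, 1, 41 and 2 counts. Of 8 neutrophil and granule genes Mpo rose over control and the other 7 did not pass, with negative fold changes for all 7, an unadjusted p under 0.05 for 6 of them and a median log2 fold change of -1.70 over the 8 genes. Their sums, which Mpo dominates, were 2241 to 4263 CPM in control, 3147 and 4442 CPM in NHD13 and 8454 to 14376 CPM in NHD13/MSI2. Csf1r rose among 6 monocyte genes (sums 19.3 to 39.9, 197 and 212, and 362 to 539 CPM in the same order of groups). The other 5 did not pass. Of the 6 genes, 4 had a positive and 2 a negative fold change over control (lowest log2 fold change -1.34). Over NHD13, 3 were positive and 3 negative.

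Among 6 B cell genes Cd79a, Cd79b and Pax5 rose (sums 45.7 to 57.5, 81.9 and 127, and 262 to 448 CPM), while Ms4a1 was at 0 in 3 of the 4 NHD13/MSI2 libraries. Of the 6 B cell genes, 4 had a positive and 2 a negative fold change over control. The erythroid gene Hba-a1 was at 0 in every library. Itga2b fell among the 5 megakaryocyte genes tested (sums over 6 genes 81.4 to 225, 87.0 and 707, and 16.4 to 46.5 CPM). Of 5 T cell genes 1, Lck, could be tested. It rose in NHD13 over control (log2 fold change 2.22, adjusted p = 0.00135), fell in NHD13/MSI2 over NHD13 (-1.44, adjusted p = 0.00426) and did not pass in NHD13/MSI2 over control (0.78, adjusted p = 0.0198; sums 36.7 to 44.7, 192 and 198, and 49.6 to 84.0 CPM). The part of these markers in the levels of Xrcc5, Xpc and the other repair genes was not tested.

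Since 2 of the 3 control libraries differed in sex from the other libraries, the comparisons were also read with control replicate 2 as the only control. Xrcc5 was then at a log2 fold change of -3.59 over control (adjusted p = 0.0249) and Xpc at 0.82 (adjusted p = 0.105), with 0 of the 41 genes past the threshold and 95 of all genes. The direction and size of both differences were close to those with 3 controls. More of the 41 genes had positive fold changes over control in this reading than with 3 controls. The loss of calls came with 2 fewer libraries, and its cause was not tested. The control library names hold different cell terms, so leaving out replicates 1 and 3 may change the sort as well as the sex. Fancb, the X-linked gene among the 41, had 19.99 and 29.8 CPM in control replicates 1 and 3 and 16.4 to 33.1 CPM in the other 7 libraries.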

How the data were processed

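The authors deposited whole-number read counts per gene symbol for 9 libraries, without normalization. The submitters' processing notes name STAR, HTSeq, DESeq and mm9, without versions. In the deposited table the names after 11 n-Mar rows stand 2 rows too high, so 11942 names (20 of the 41 genes) were moved down by 2 rows and 13 rows were left unnamed (0.0253 to 0.0323% of counts). After this move 68 of 77 ribosomal protein genes reached 100 CPM (54 without it), and Xist, which stands near Xpc and Xrcc5 in the list, reached 949 CPM in control replicate 1 (both on library totals, without TMM).

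Counts were filtered with filterByExpr, scaled by TMM and tested in R 4.3.3 with the quasi-likelihood F-test of edgeR 4.0.16 on all 9 libraries. P-values were adjusted by Benjamini-Hochberg over 13355 genes, with a threshold of 0.01, the q-value of the study. DESeq2 1.42.0 and the other settings below were alternatives. SE is that of the log2 fold change. Exon lengths and overlaps came from GENCODE M21 on GRCm38, which is not the build of the counts. Some marker values are not reported here. Each of the 41 genes had more than 3 counts in every library. Some marker genes had fewer, and a count of 0 allows up to 3 counts, or 0.130 to 0.156 CPM on library totals (counting error only).

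All 41 genes are named. Every library is given for those past the threshold and for the 5 with the smallest p in each comparison, and further values were chosen after they had been seen. The genes and lists were chosen with earlier results of these data known.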

Additional observations from a re-analysis of the deposited data

Results flagged for a closer look

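In the 4 NHD13/MSI2 libraries, 9 of the 41 genes had 1 library whose gap to the nearest other library, as a share of the whole range, passed Dixon's critical value for 4 samples. Chance passes it in about 1 in 20 groups, and 15.8% of all genes tested passed it in this group. Replicate 4 was the far library for 7 of the 9 genes. It was the highest for Rad50 (gap 0.873 of the range, 481 CPM against 194 to 230 CPM), Prkdc (0.876, 121 CPM against 55.4 to 63.5 CPM), Ogg1 (0.860, 66.7 CPM against 26.0 to 31.7 CPM), Atm (0.847, 147 CPM against 78.9 to 89.3 CPM) and Fanci (0.831, 116 CPM against 57.8 to 67.7 CPM).

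Replicate 4 was the lowest for Fancl (0.848, 16.9 CPM against 30.8 to 33.3 CPM) and for Xrcc4 (0.910, 18.4 CPM against 21.9 to 22.2 CPM). Rad51c was far in replicate 2 (0.889, 9.77 CPM against 4.89 to 5.43 CPM) and Lig3 in replicate 3 (0.839, 127 CPM against 102 to 106 CPM). The criterion was not applied to the 3 control and 2 NHD13 libraries.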

How the results depend on the processing

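Under the alternatives 249 values of single genes kept their direction and side of the threshold and 153 counts stayed within 1.5 times, and the others follow. Xrcc5 and Xpc passed over control with each library left out in turn (log2 fold changes of -3.90 to -3.43 and of 0.86 to 1.00). Both lost the call with control replicate 2 alone (-3.59 and 0.82). Xrcc5 over control also lost it with the names as deposited (-0.18, adjusted p = 0.581), where its log2 fold change over NHD13 was 0.36 and that of Xrcc3 in NHD13 over control was 0.26. The names as deposited put other genes' reads on these symbols. Genes that gained the call were Xrcc5 over NHD13 with library totals alone (-2.66), no filter (-2.48) and DESeq2 (-2.47), Xpc over NHD13 with DESeq2 (0.70), Chek1 over control with library totals alone (-0.83), and Atr over control with DESeq2 (-0.41, adjusted p = 0.00204). With a library left out, Xrcc5 over NHD13 gained it without NHD13 replicate 2 (-2.99), and without NHD13/MSI2 replicate 4 Xpc over NHD13 (0.73) and Chek1 over control (-0.73) did. At an adjusted p under 0.05 Xrcc5 and Xpc over NHD13 and Atr over control also passed.

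Counts of the 41 genes called over NHD13 were 0 in the main fit, 1 with library totals alone (Xrcc5), 1 with no filter, 2 with DESeq2, 2 at an adjusted p under 0.05 and 0 to 1 with a library left out. Over control they were 2 in the main fit, 4 with library totals alone, 4 with the names as deposited (none of them Xrcc5 or Xpc), 0 with control replicate 2 alone and 2 to 5 with a library left out. Positive fold changes numbered 14 over NHD13 and 7 over control with library totals alone, and 23 over control with control replicate 2 alone. They were 19 to 28 over NHD13, 14 to 17 over control and 12 to 17 in NHD13 over control with a library left out.

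Of the other repair genes 3 were called over NHD13 with the names as deposited, and 0 to 1 with a library left out. Over control 6 were called with library totals alone, 1 with no filter, 9 with DESeq2, 6 with the replicate block, 6 with the names as deposited, 1 with only the 2 groups compared, 0 with control replicate 2 alone, 11 at an adjusted p under 0.05 and 0 to 13 with a library left out. This reading was added after the data had been seen.

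All genes called over NHD13 numbered 423 in the main fit, 1292 with DESeq2, 203 with the replicate block, 30 with only the 2 groups compared, 38 with control replicate 2 alone, 1177 at an adjusted p under 0.05 and 128 to 646 with a library left out. Over control they numbered 1474, 2590 with DESeq2, 95 with control replicate 2 alone, 2745 at an adjusted p under 0.05 and 647 to 2066 with a library left out. In NHD13 over control they numbered 138, 602 with DESeq2, 83 with only the 2 groups compared, 7 with control replicate 2 alone, 386 at an adjusted p under 0.05 and 38 to 251 with a library left out. Library totals alone moved the lower share of the calls over control from 59.4% to 73.0%, and DESeq2 moved it from 81.6% to 69.5% over NHD13 and from 20.3% to 37.4% in NHD13 over control. Where a library is left out of NHD13, the remaining library is assumed to vary like the other groups. The causes of these shifts were not tested.

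Replicate numbers are shared by the groups in the labels, and correlations between same-numbered libraries were -0.072 to 0.194, so the numbers were not taken as pairs. The replicate block moved the calls over NHD13 to 203, and with it 3 of the 41 genes were called over control (Brca2, Xpc and Xrcc5). With 2 NHD13 libraries and 1 replicate that stands apart, smaller differences of these genes may have been missed.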

Other observations

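The genes nearest to Xrcc5 and Xpc in the order of tested genes were read as values, chosen after the main results had been seen. Genes that were not tested may lie between them. On chromosome 1, Pecr, the tested gene before Xrcc5, had mean levels of 19.7 CPM in control, 13.0 CPM in NHD13 and 4.65 CPM in NHD13/MSI2. Its log2 fold change over control was -2.08 (adjusted p = 0.00240). Smarcal1 on the other side of Xrcc5 was at 55.3, 50.9 and 44.9 CPM (-0.30, adjusted p = 0.370). Atic, a few genes away, was at 142, 125 and 103 CPM (-0.47, adjusted p = 0.143). Bard1, Rpl37a and Tns1 had negative fold changes over control that did not pass (-0.09, -0.14 and -0.40). Fn1 and Igfbp5 had positive ones that did not pass (0.51 and 4.01), at mean levels of 0.837 to 2.14 CPM and 0.0273 to 0.744 CPM.

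On chromosome 6, the neighbours of Xpc also went both ways over control. Tmem43 was at 130, 144 and 212 CPM (log2 fold change 0.70, adjusted p = 0.0161) and Lsm3 at 148, 97.6 and 82.2 CPM (-0.84, adjusted p = 0.00994). Fgd5, 4 tested genes away from Xpc and known as a marker of blood stem cells, was at 9.94, 10.8 and 0.0675 CPM (adjusted p = 6.0e-05). The last of these levels is below that of 3 counts in a library.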
